A study of Mus musculus with 4 samples.

Results

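The genes described here are 28 genes of cholesterol synthesis, sterol transport and the control of both, chosen by name from 39179 genes counted in 4 mouse embryos staged at E7.75. All 28 symbols matched a single Ensembl gene, and all 28 passed the filter on low counts that left 15822 genes for testing. They comprise 7 enzymes of the mevalonate steps, 11 enzymes from squalene to cholesterol, 5 regulators of the sterol regulatory element binding proteins (SREBPs), and 5 genes of sterol transport and of the liver X receptors (LXRs). All 4 embryos were chimeras, made from embryonic stem cells (ESCs) grown in 2i medium and carrying FLAG-tagged Lhx1. The cells were injected into 8-cell host embryos of an ARC x RLZRFP cross. LHX1 is a LIM homeodomain transcription factor of the head organizer. The ESCs carried FLAG-Lhx1 in 2 embryos and FLAG-Lhx1-mt, also written FLAG-Lhx1-Δ, in the other 2. In both groups the recipient females were given doxycycline (2 mg/mL, with 5% sucrose) in water over 24 hours, and embryos dissected at E8.5 were staged as E7.75. The labels do not say what the mutant form lacks or how many ESC clones were used. The share of host cells in each chimera is not stated either. Each library is labelled as a chimeric embryo and is called an embryo here, although the labels do not say whether embryos were pooled or how replicates were separated. The p-values then measure only the spread between these libraries, which may be technical. Since the RNA is bulk, fewer cells of a type and less RNA per cell cannot be told apart.

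Cholesterol is built from acetyl-CoA through mevalonate and farnesyl diphosphate to squalene, which is closed to lanosterol and then trimmed to cholesterol. When sterols are scarce, SCAP carries the SREBPs from the endoplasmic reticulum to the Golgi, where they are cleaved, and the released factor switches on the genes of this pathway. INSIG proteins hold SCAP back when sterols are plentiful, and Insig1 is itself an SREBP target. LXRs respond to oxidised sterols and raise cholesterol export. In the early embryo cholesterol is also attached to hedgehog proteins, and the visceral endoderm, the absorptive layer around the embryo, takes up lipids and passes them on.

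Total counts per embryo ran from 21267116 to 30434442, and 3 counts corresponded to 0.0986 to 0.141 CPM, the counts scaled to the size of each library. All 8 markers of the embryo proper were detected, and 4 of them were called between the groups, against 6.17% of all tested genes. Sox2 rose in FLAG-Lhx1 (log2 fold 1.05), and Pou5f1 (-1.76), Mesp1 (-1.47) and T (-0.70) fell. Primitive blood markers summed to 2.41 to 4.95 CPM and maternal decidua markers to 4.27 to 6.57 CPM. In FLAG-Lhx1-mt replicate 2, the blood marker Klf1 had 39 counts and the decidual marker Prl8a2 52, against 2 to 4 and 2 to 3 in the other 3 embryos; these genes were chosen after their values were seen. All 12 visceral endoderm markers had a negative log2 fold (FLAG-Lhx1 over FLAG-Lhx1-mt), against 7771 of 15822 tested genes. Of these markers 5 fell in FLAG-Lhx1 (3.55% of all tested genes), namely Afp, Apoa1, Rbp4, Cubn and Soat2. Their summed level was 1962 to 2200 CPM in FLAG-Lhx1 and 3255 to 3806 CPM in FLAG-Lhx1-mt, and none was at 0. Trophoblast markers summed to 92.8 to 117 CPM against 167 to 174 CPM, most of it Rhox5 (85.7 to 109 CPM against 161 to 167 CPM), which fell. The other 5 tested trophoblast markers had positive folds and none was called. Parietal endoderm markers summed to 180 to 198 CPM against 173 to 174.5 CPM, with 5 of 6 folds positive; Plat rose and Srgn fell.

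The stretches just before the start of 6 genes are shown, chosen with the results known. Hmgcs1, Insig1, Msmo1 and Cyp51 were each lowest in the same embryo, Ebp was called lower in FLAG-Lhx1, and Abca1 was called higher. Abcg1, also called lower, is not shown because no RefSeq promoter was found for it. Each line gives the 200 bases before the annotated start, from RefSeq promoters on GRCm38.p6, 5′ to 3′ on the strand of the gene. Capitals mark matches on either strand to TCACNCCAC, the core of the sterol regulatory element, and to CCAAT, the box bound by NF-Y, a known partner of SREBPs. The coordinates are chr13:119690151-119690350, plus strand, for Hmgcs1; chr5:28071212-28071411, plus strand, for Insig1; chr8:64733579-64733778, minus strand, for Msmo1. They are chr5:4104698-4104897, minus strand, for Cyp51; chrX:8193513-8193712, minus strand, for Ebp; and chr4:53159896-53160095, minus strand, for Abca1.
Hmgcs1: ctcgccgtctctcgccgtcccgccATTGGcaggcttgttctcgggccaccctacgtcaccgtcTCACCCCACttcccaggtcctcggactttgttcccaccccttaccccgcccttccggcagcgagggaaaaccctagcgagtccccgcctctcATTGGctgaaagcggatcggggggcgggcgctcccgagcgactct
Insig1: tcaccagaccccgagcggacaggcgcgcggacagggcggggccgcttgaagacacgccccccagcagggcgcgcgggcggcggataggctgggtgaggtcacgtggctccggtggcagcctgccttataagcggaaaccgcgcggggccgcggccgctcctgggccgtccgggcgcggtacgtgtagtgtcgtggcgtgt
Msmo1: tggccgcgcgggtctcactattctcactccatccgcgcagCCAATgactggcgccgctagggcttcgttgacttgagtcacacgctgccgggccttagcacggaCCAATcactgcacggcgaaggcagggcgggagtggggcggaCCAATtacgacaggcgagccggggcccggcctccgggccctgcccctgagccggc
Cyp51: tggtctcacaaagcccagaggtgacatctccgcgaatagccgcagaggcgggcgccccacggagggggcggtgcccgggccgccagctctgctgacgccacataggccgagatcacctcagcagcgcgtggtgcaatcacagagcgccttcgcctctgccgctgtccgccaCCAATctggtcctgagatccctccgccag
Ebp: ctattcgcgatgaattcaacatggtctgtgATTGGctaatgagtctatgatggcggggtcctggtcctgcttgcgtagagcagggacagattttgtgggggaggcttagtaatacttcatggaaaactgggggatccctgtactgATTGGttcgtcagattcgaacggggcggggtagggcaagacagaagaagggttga
Abca1: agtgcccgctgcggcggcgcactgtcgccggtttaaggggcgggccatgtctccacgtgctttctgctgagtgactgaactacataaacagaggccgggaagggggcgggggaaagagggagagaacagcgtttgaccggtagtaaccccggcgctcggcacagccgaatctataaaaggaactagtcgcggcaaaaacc

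RefSeq promoters of 300 bases (250 before the start and 50 after) were found for 23 of the 28 genes. CCAAT, on either strand, was in the promoters of 18 of these 23, against 41.06% of 27025 genes with a promoter. TCACNCCAC was in 1 of the 23, that of Hmgcs1, against 1.44% of genes. The 10-base sterol regulatory element that extends this core was matched at 9 or more bases in 3 of 23, those of Hmgcs1, Nsdhl and Srebf2, against 2.22% of genes. It was matched at 8 or more bases in 10 of 23, against 25.42% of genes, and at all 10 bases in none. The Abca1 stretch held neither TCACNCCAC nor CCAAT. Insig1 held neither TCACNCCAC nor CCAAT in the stretch shown, and its only CCAAT lay 216 bases before the start.

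Between the groups, 3 of the 28 genes were called by edgeR at an adjusted p under 0.05, against 6.17% of all tested genes. Abca1 rose in FLAG-Lhx1, and Ebp and Abcg1 fell. The share called higher was 2.62% over all tested genes, and the share called lower 3.55%. The median log2 fold of the 28 genes was -0.034, with 12 positive and 16 negative, and that of all tested genes was 0.0089. With upper-quartile normalization these medians were 0.0155 and 0.062, with 16 of the 28 positive. An unadjusted p under 0.05 was found for 9 of the 28, against 21.3% of all tested genes. For 2 embryos against 2, the smallest p of an exact permutation test is 0.333, and the calls therefore depend on a spread that edgeR models across genes. The groups did not overlap for 6 genes that were higher in FLAG-Lhx1 (26.4% of all tested genes) and 5 that were lower (25.8%), or 11 in all (52.2%).

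**Figure D1:**
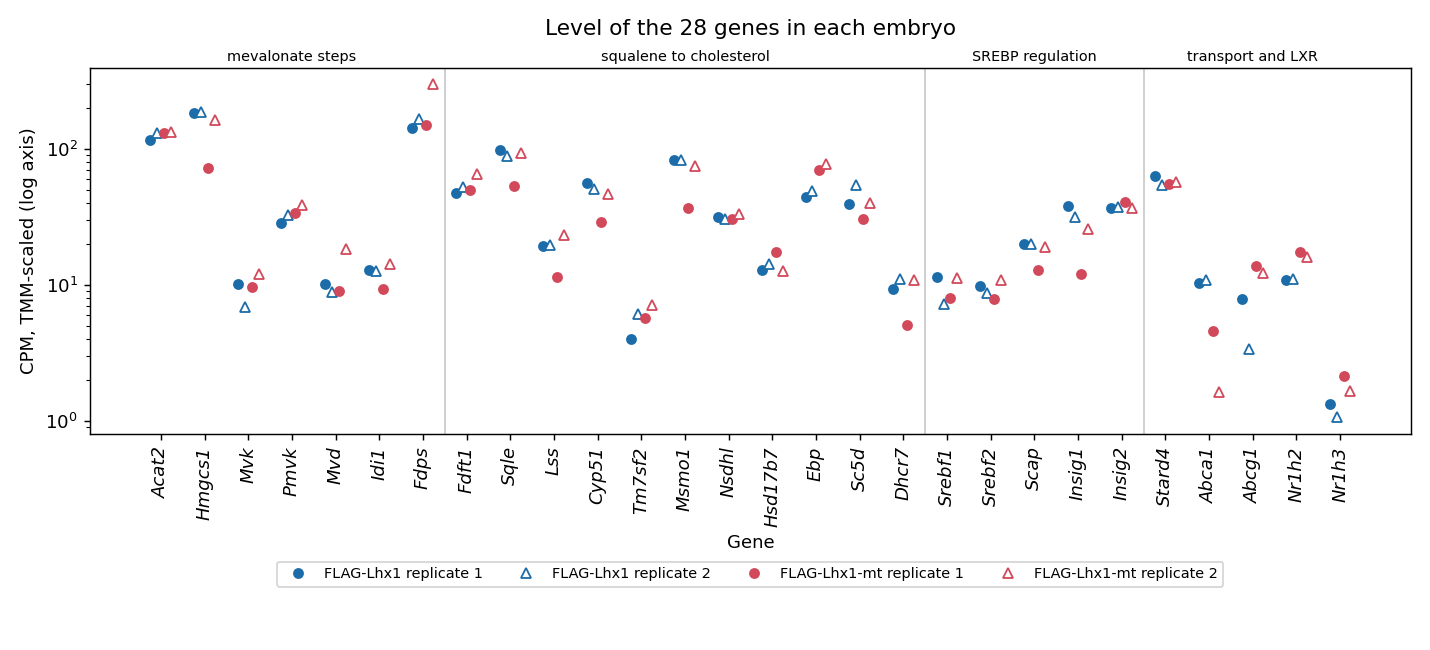
Level of each of the 28 genes in each of the 4 embryos, as TMM-scaled CPM on a log axis, ordered by step of the pathway; each point is 1 embryo. FLAG-Lhx1-mt replicate 1 (filled red circles) was the lowest embryo for 12 genes, among them Hmgcs1, Msmo1 and Insig1, and the lower of the FLAG-Lhx1-mt pair for 22.

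The FLAG-Lhx1-mt embryos differed from each other across many of these genes. Replicate 1 of that group was the lowest of the 4 embryos for 12 of the 28 genes (25.5% of all tested genes) and replicate 2 for 3 (26.4%). FLAG-Lhx1 replicates 1 and 2 were the lowest for 7 (24.1%) and 6 (24.0%). FLAG-Lhx1-mt replicate 1 was below replicate 2 for 22 of 28 genes, and for 17 of the 18 synthesis enzymes. The ratio of replicate 2 to replicate 1 was 1.5 or more for 10 genes, namely Hmgcs1, Mvd, Idi1, Fdps, Sqle, Lss, Cyp51, Msmo1, Dhcr7 and Insig1. All 10 belong to the 27 members with a mean of 5 CPM or more. Among all 9105 tested genes at that level, 3.99% had such a ratio, and 12.6% of all tested genes. The median ratio was 1.31 over the 28 genes and 0.987 over all tested genes. By contrast, the FLAG-Lhx1 embryos lay within 1.5-fold of each other for 25 of 28 genes and the FLAG-Lhx1-mt embryos for 17. Those shares were 95.8% and 91.3% of all genes with a mean of 5 CPM or more. This comparison of embryos was chosen after the values were seen.

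**Figure D2:**
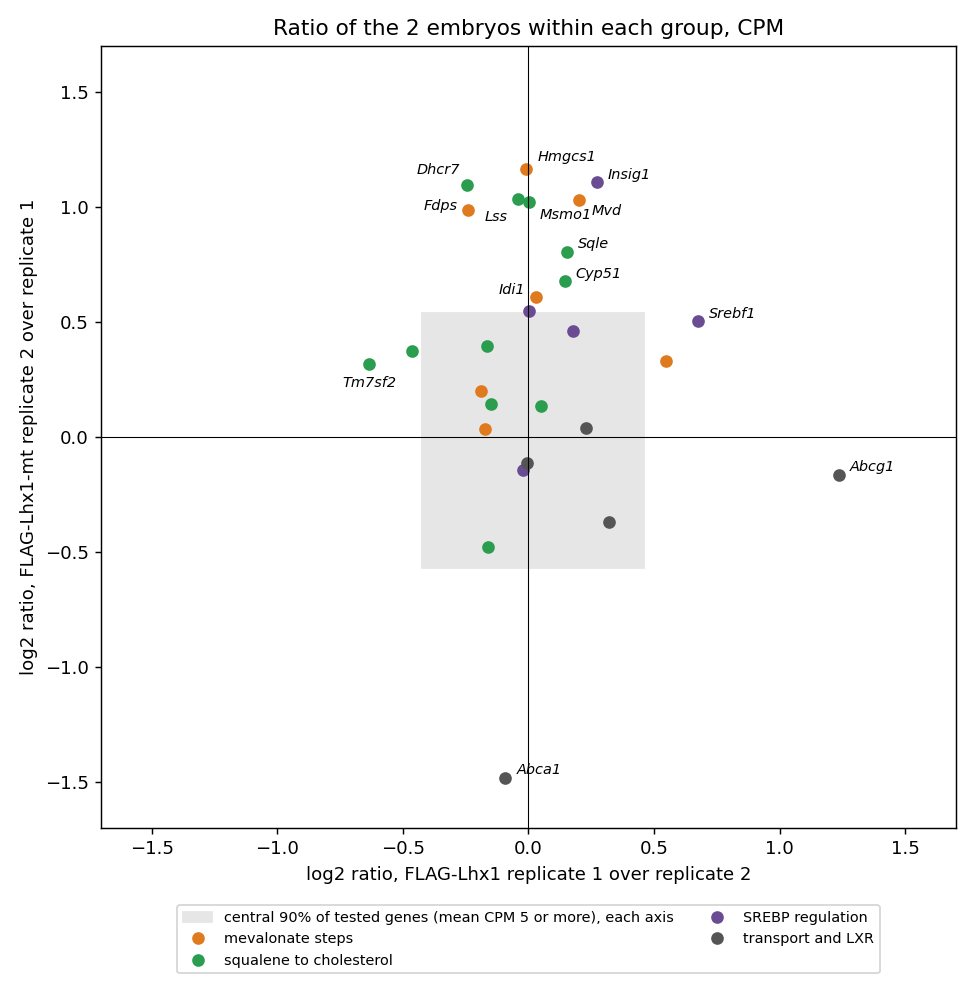
For each of the 28 genes, the log2 ratio of CPM of the FLAG-Lhx1 embryos (horizontal axis) against that of the FLAG-Lhx1-mt embryos (vertical axis); the grey box spans the central 90% of tested genes with a mean of 5 CPM or more on each axis. The 10 genes named in the text sit above the box and within its width, Abca1 lies far below it, and Abcg1 far to the right.

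Summed over the 18 synthesis enzymes, the level was 950 and 1005 CPM in FLAG-Lhx1 replicates 1 and 2, 756 CPM in FLAG-Lhx1-mt replicate 1 and 1163 CPM in FLAG-Lhx1-mt replicate 2. The FLAG-Lhx1-mt embryos thus held both the lowest and the highest sum, with the FLAG-Lhx1 embryos between them. Fdps, which is among these enzymes, stood at 299.7 CPM in FLAG-Lhx1-mt replicate 2 and at 151 CPM in replicate 1. In FLAG-Lhx1 replicates 1 and 2 Fdps was at 142 and 167 CPM, and its counts are uncertain, as described below. Visceral endoderm markers summed to 3806 CPM in the embryo with the lowest enzyme sum and 3255 CPM in the one with the highest. In FLAG-Lhx1 replicates 1 and 2, with enzyme sums between these, the markers summed to 1962 and 2200 CPM. Their part in this pattern was not tested. Across the 28 genes the ratio of the FLAG-Lhx1-mt embryos was not ordered by transcript length (Spearman's rho = 0.0038) or GC content (rho = -0.036), as a description over genes that share the same libraries.

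In the mevalonate steps, none of the 7 enzymes was called, and their median log2 fold was -0.23. Hmgcs1, which makes HMG-CoA from acetoacetyl-CoA, stood at 185 and 186 CPM in the FLAG-Lhx1 embryos. FLAG-Lhx1-mt replicate 1 was at 72.6 CPM and replicate 2 at 163 CPM. The FLAG-Lhx1 embryos were nearly equal and both higher, and most of the gap came from FLAG-Lhx1-mt replicate 1. The log2 fold was 0.65 ± 0.25 (SE; edgeR adjusted p = 0.14). Leaving out FLAG-Lhx1-mt replicate 2 gave 1.34, and leaving out replicate 1 gave 0.18. Hmgcs1 lies on chromosome 13 at 119690379 to 119708260 (GRCm38), and exons of a gene model on the other strand cover 12.1% of its exon bases.

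Fdps, which makes farnesyl diphosphate, the branch point to squalene and to prenylated proteins, had a different order. It stood at 142 and 167 CPM in FLAG-Lhx1, at 151 CPM in FLAG-Lhx1-mt replicate 1 and at 299.7 CPM in replicate 2. FLAG-Lhx1-mt replicate 2 was high alone, and the other 3 embryos were close together. The log2 fold was -0.55 ± 0.23 (SE; edgeR adjusted p = 0.175). Leaving out FLAG-Lhx1-mt replicate 1 gave -0.96, and leaving out replicate 2 gave 0.014. Mvd, the decarboxylase that yields the isoprenoid unit, was also highest in FLAG-Lhx1-mt replicate 2, at 10.1 and 8.80 CPM against 9.02 and 18.4 CPM (log2 fold -0.54 ± 0.29, SE; edgeR adjusted p = 0.307). Exons of another gene model on the same strand cover 26.7% of the exon bases of Fdps, so its counts are uncertain.

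Acat2, the cytosolic thiolase that opens the pathway, was the most abundant of the 28 genes per length, with a mean over the 4 embryos of 50.03 CPM per kilobase of exon. Its levels were 116 and 130.2 CPM in FLAG-Lhx1 and 130.1 and 133 CPM in FLAG-Lhx1-mt. These overlapped, and the log2 fold was -0.099 ± 0.14 (SE; edgeR adjusted p = 0.744). Of its longest transcript, 45.9% of 50-base words also occur in transcripts of other genes, mainly the paralog Acat3, so reads may have been split between the copies. Idi1, the isomerase, shares 30.5% in the same way, largely with a processed pseudogene. The kinases Mvk and Pmvk had log2 folds of -0.35 and -0.23 and Idi1 0.11, none of them called.

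Of the 11 enzymes from squalene to cholesterol, Ebp fell and 10 did not pass, with a median log2 fold of 0.16. Ebp, the isomerase that moves a double bond in the sterol ring, was at 44.6 and 49.5 CPM in the FLAG-Lhx1 embryos and at 70.3 and 77.5 CPM in the FLAG-Lhx1-mt embryos (replicates 1 and 2 in each pair). The groups did not overlap, and the gap between them was larger than the gap between embryos of either group. Means were 47.0 ± 3.42 and 73.9 ± 5.12 CPM (SD, n = 2 each), and the log2 fold was -0.65 ± 0.15 (SE; edgeR adjusted p = 0.0196). The call was lost with offsets for transcript length and GC content (-0.44, adjusted p = 0.0978). It was lost as well without FLAG-Lhx1 replicate 1 (-0.61, adjusted p = 0.132) or replicate 2 (-0.72, adjusted p = 0.065), with folds close to that of all 4 embryos. Ebp lies on chromosome X at 8185329 to 8193512, and its longest transcript has 1743 bases. The summed visceral endoderm markers were also lower in FLAG-Lhx1, and their part in the fall of Ebp was not tested.

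Msmo1, an oxidase of sterol demethylation, had 83.1 and 83.0 CPM in the FLAG-Lhx1 embryos. It had 36.9 CPM in FLAG-Lhx1-mt replicate 1 and 74.9 CPM in replicate 2. The order matched that of Hmgcs1: FLAG-Lhx1-mt replicate 1 was low and the other 3 were close. The log2 fold was 0.57 ± 0.23 (SE; edgeR adjusted p = 0.168). It came to 1.16 when FLAG-Lhx1-mt replicate 2 was left out and to 0.14 when replicate 1 was. Cyp51, which demethylates lanosterol, had 55.9 and 50.6 CPM against 29.0 and 46.4 CPM (log2 fold 0.50 ± 0.20, SE; edgeR adjusted p = 0.158). Both genes had no overlap between the groups.

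Sqle, the epoxidase that commits squalene to sterols, had 98.7 and 88.7 CPM in FLAG-Lhx1 and 53.3 and 93.01 CPM in FLAG-Lhx1-mt (log2 fold 0.36 ± 0.20, SE; edgeR adjusted p = 0.34). FLAG-Lhx1-mt replicate 2 lay between the FLAG-Lhx1 embryos, so the groups overlapped. Lss, lanosterol synthase, had 19.2 and 19.8 CPM against 11.4 and 23.3 CPM. Dhcr7, the reductase deficient in Smith-Lemli-Opitz syndrome, had 9.27 and 10.99 CPM against 5.11 and 10.9 CPM. In both, FLAG-Lhx1-mt replicate 1 was lowest at about the same distance below its group mate, with ratios of 2.05 for Lss and 2.14 for Dhcr7. Sc5d, a sterol desaturase, had 39.3 and 54.2 CPM against 30.8 and 39.8 CPM (log2 fold 0.40, adjusted p = 0.238).

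None of the other 4 enzymes of this arm was called. Nsdhl, a dehydrogenase of sterol demethylation, spanned 30.3 to 33.3 CPM over the 4 embryos, with a log2 fold of -0.028 ± 0.17 (SE). Hsd17b7, the ketoreductase of the same complex, was the single synthesis enzyme that was higher in FLAG-Lhx1-mt replicate 1 (17.5 CPM) than in replicate 2 (12.6 CPM). Fdft1, squalene synthase, spanned 47.1 to 65.5 CPM and had a log2 fold of -0.21. Exons of Ctsb on the other strand cover 18.3% of its exon bases. Tm7sf2, a sterol reductase, was the lowest enzyme of the pathway per length (1.30 CPM per kilobase). It was at 3.97 and 6.16 CPM in FLAG-Lhx1 and at 5.71 and 7.13 CPM in FLAG-Lhx1-mt, with overlap and a log2 fold of -0.35. Exons of Vps51 on the same strand cover 12.1% of its exon bases.

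**Figure D3:**
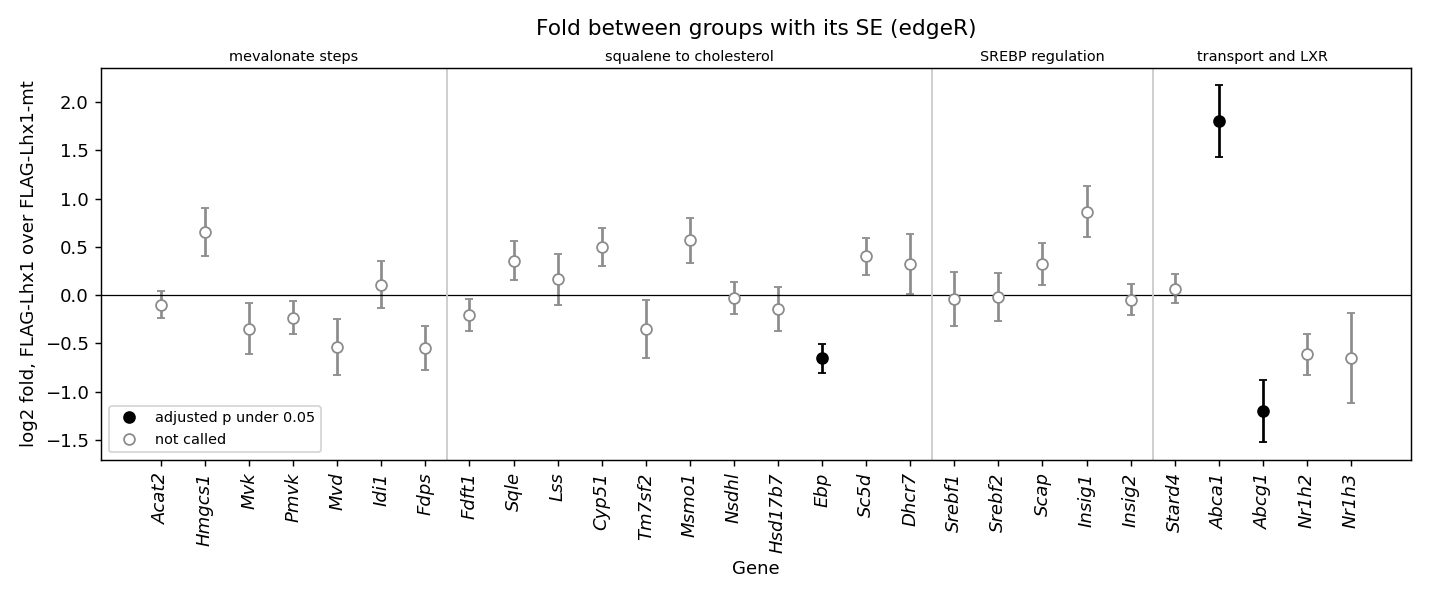
Log2 fold of each of the 28 genes between FLAG-Lhx1 and FLAG-Lhx1-mt with its SE from edgeR, ordered by step; filled points passed an adjusted p of 0.05. Abca1 is the single filled point above 0, at 1.80, and Ebp and Abcg1 are filled below it, at -0.65 and -1.20.

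Among the SREBP regulators none of 5 was called by edgeR, and Insig1 came nearest. An unadjusted p under 0.05 was found for 1, against 21.3% of all tested genes. Insig1 was at 37.9 and 31.4 CPM in the FLAG-Lhx1 embryos, at 12.03 CPM in FLAG-Lhx1-mt replicate 1 and at 25.9 CPM in replicate 2. Both FLAG-Lhx1 embryos were higher than both FLAG-Lhx1-mt embryos, which themselves differed by a ratio of 2.15. The log2 fold was 0.86 ± 0.27 (SE; edgeR adjusted p = 0.0676). DESeq2's Wald test and limma-voom called it, at log2 folds of 0.86 and 0.93. With FLAG-Lhx1-mt replicate 2 left out it was 1.52, and with replicate 1 left out 0.42 (edgeR adjusted p = 0.202). Insig1 lies on chromosome 5 at 28071363 to 28078662.

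Insig2, the paralog that is not known as an SREBP target, varied little, at 37.0 and 37.5 CPM against 40.5 and 36.6 CPM (log2 fold -0.047 ± 0.16, SE; edgeR adjusted p = 0.904). Per kilobase of exon, the level of Insig1 was 1.15 and 0.94 times that of Insig2 in FLAG-Lhx1 replicates 1 and 2. In FLAG-Lhx1-mt it was 0.334 times in replicate 1 and 0.795 times in replicate 2. Reads of the paralogs are separable here, since Insig2 shares no 50-base word with another gene and Insig1 shares 2.5%, with a pseudogene.

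The SREBP genes themselves were low and overlapped between the groups. Srebf2, whose protein drives mainly the cholesterol genes, was at 9.85 and 8.70 CPM in FLAG-Lhx1 and at 7.90 and 10.9 CPM in FLAG-Lhx1-mt (log2 fold -0.019 ± 0.25, SE; edgeR adjusted p = 0.978). Srebf1, known mainly for fatty acid genes, was at 11.5 and 7.22 CPM against 7.99 and 11.3 CPM (log2 fold -0.040 ± 0.28, SE; adjusted p = 0.956). FLAG-Lhx1-mt replicate 1 was the lowest of the 4 embryos for Srebf2 and the second lowest for Srebf1. Scap, the escort of the SREBPs, was at 19.96 and 19.94 CPM against 12.9 and 18.9 CPM (log2 fold 0.32 ± 0.22, SE; adjusted p = 0.426). It too was lowest in FLAG-Lhx1-mt replicate 1, and exons on the other strand cover 13.2% of its exon bases. Counts measure the RNA of these genes and not the cleavage of their proteins.

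Sterol transport and the LXRs held the largest rise and the largest fall of the 28 genes. Abca1, the exporter that loads cholesterol onto apolipoprotein A-I, was at 10.3 and 10.9 CPM in the FLAG-Lhx1 embryos, at 4.55 CPM in FLAG-Lhx1-mt replicate 1 and at 1.63 CPM in replicate 2. The FLAG-Lhx1 embryos agreed closely, both FLAG-Lhx1-mt embryos were lower, and replicate 2 was the lowest. Means were 10.6 ± 0.475 and 3.09 ± 2.07 CPM (SD, n = 2 each), and the log2 fold was 1.80 ± 0.37 (SE; edgeR adjusted p = 0.0109). It was called under all 11 alternatives, with log2 folds from 1.20 (FLAG-Lhx1-mt replicate 2 left out) to 2.69 (replicate 1 left out). Abca1 lies on chromosome 4 at 53030787 to 53159895 and has a longest transcript of 10262 bases.

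Abcg1, the exporter that passes cholesterol to lipoprotein particles, moved the other way. FLAG-Lhx1 replicate 1 was at 7.90 CPM and replicate 2 at 3.36 CPM, and the FLAG-Lhx1-mt embryos were at 13.8 and 12.3 CPM. Both FLAG-Lhx1 embryos were lower, and they differed from each other by a ratio of 2.35. Means were 5.63 ± 3.21 and 13.1 ± 1.06 CPM (SD, n = 2 each), and the log2 fold was -1.20 ± 0.32 (SE; edgeR adjusted p = 0.0387). The call was lost without FLAG-Lhx1 replicate 2 (-0.71, adjusted p = 0.297) and with upper-quartile normalization (adjusted p = 0.0528), and the fold was -1.99 without FLAG-Lhx1 replicate 1. Abcg1 lies on chromosome 17 at 31057675 to 31117988.

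Per kilobase of exon, Abca1 stood at 0.915 and 2.29 times Abcg1 in FLAG-Lhx1 replicates 1 and 2 and at 0.232 and 0.093 times in FLAG-Lhx1-mt replicates 1 and 2. The ratio was thus higher in both FLAG-Lhx1 embryos. The summed visceral endoderm markers were lower in FLAG-Lhx1, as Abcg1 was, and their part in either result was not tested. Plat, of the parietal endoderm list and chosen after its values were seen, had the group order of Abca1, at 7.17 and 9.92 CPM against 3.56 and 0.511 CPM (log2 fold 2.11; edgeR adjusted p = 0.0322). Srgn, of the same list, went the other way (log2 fold -1.76, edgeR adjusted p = 0.00194). Of the 6 listed markers 5 had positive folds, and the 6 together summed to 180 to 198 CPM against 173 to 174.5 CPM. The part of that cell type was not tested either. Nr1h2, which encodes LXR beta, was at 10.95 and 10.99 CPM against 17.4 and 16.1 CPM (log2 fold -0.61 ± 0.21, SE; edgeR adjusted p = 0.105). Nr1h3, which encodes LXR alpha, was the least abundant gene per length and lay between 1.07 and 2.15 CPM (log2 fold -0.65 ± 0.47, SE; adjusted p = 0.458). Neither receptor overlapped between the groups, and neither passed the test. Stard4, a carrier of cholesterol within cells, spanned 54.0 to 63.4 CPM (log2 fold 0.067 ± 0.15, SE).

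**Figure D4:**
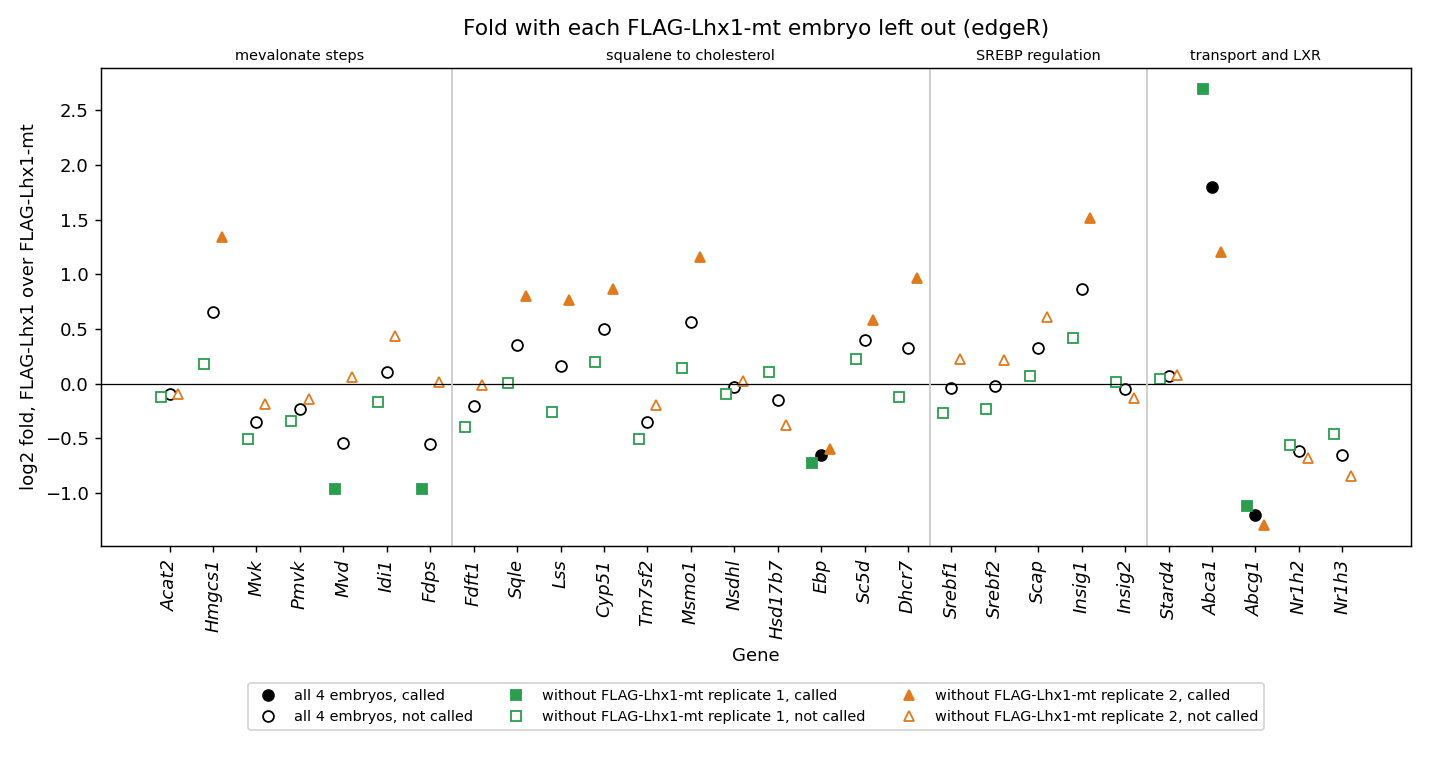
Log2 fold of each of the 28 genes with all 4 embryos (black), without FLAG-Lhx1-mt replicate 1 (green squares) and without FLAG-Lhx1-mt replicate 2 (orange triangles); filled points were called by edgeR. Synthesis genes such as Hmgcs1, Sqle and Msmo1 are filled above 0 in the fit without replicate 2 and lie near 0 in the fit without replicate 1.

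How many of these genes were called therefore turned on which FLAG-Lhx1-mt embryo was used. Without FLAG-Lhx1-mt replicate 2, 9 genes were called higher (3.40% of all tested genes in that fit) and 2 lower (5.76%). Those higher were Hmgcs1, Sqle, Lss, Cyp51, Msmo1, Sc5d, Dhcr7, Insig1 and Abca1. Without FLAG-Lhx1-mt replicate 1, 1 gene, Abca1, was called higher (4.82%) and 4 were called lower (4.74%), namely Mvd, Fdps, Ebp and Abcg1. Each of these fits has a lone FLAG-Lhx1-mt embryo, which is assumed to vary as the FLAG-Lhx1 pair does. Abca1, Ebp and Abcg1 were called in both.

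Under the other settings 2 to 6 of the 28 genes were called. Without FLAG-Lhx1 replicate 2, Hmgcs1, Insig1 and Abca1 were called higher (1.49% of all tested genes) and none of the 28 lower (1.61%). Without FLAG-Lhx1 replicate 1, Abca1 was called higher (1.45%) and Abcg1 lower (2.28%). DESeq2 called Insig1 and Abca1 higher (3.10%) and 2 lower (4.49%), as did limma-voom (2.94% and 3.50%). With no filter on low counts, Hmgcs1, Insig1 and Abca1 were called higher (1.51%) and Fdps, Ebp and Abcg1 lower (2.90%). Abca1 alone was called higher with RLE size factors (2.83%), with upper-quartile normalization (2.98%) and with length and GC offsets (2.01%). The numbers called lower there were 2 (3.86%), 1 (2.50%) and 1 (2.39%). A fit with the replicate number as a block called Hmgcs1, Msmo1, Insig1 and Abca1 higher (3.25%) and 2 lower (3.94%).

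Transcript length and base composition went with the folds of these genes. Across the 28 genes, which share their libraries, the log2 fold between groups had a Spearman's rho of 0.44 with transcript length and of -0.52 with GC content. Over all 15822 tested genes the values were 0.245 and -0.163. The longest transcripts of the 28 genes had a median of 3055 bases, against 3261 over all tested genes. With offsets for length and GC content, Abca1 (1.60, adjusted p = 0.0279) and Abcg1 (-1.27, adjusted p = 0.0403) were still called, and Hmgcs1 had a log2 fold of 0.54.

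In lists of neighbouring pathways few genes were called, as was so over all tested genes (6.17%). Of 15 fatty acid genes under SREBP control, Scd2, a stearoyl-CoA desaturase, rose and none fell, with a median log2 fold of 0.063. Scd2 was at 388 and 379 CPM in FLAG-Lhx1 and at 243 and 287 CPM in FLAG-Lhx1-mt (log2 fold 0.53 ± 0.15, SE; edgeR adjusted p = 0.0423). The call was lost in 4 of the 11 alternatives, among them without FLAG-Lhx1-mt replicate 1 (0.41). All 10 members with a mean of 5 CPM or more were lower in FLAG-Lhx1-mt replicate 1 than in replicate 2. The median ratio was 1.30, and 0.987 over all tested genes. In the lists described below, replicate 1 was lower for 9 of 14 such genes of SREBP cleavage and INSIG turnover. The same held for 6 of 14 isoprenoid, 3 of 8 lipoprotein receptor and endosomal, and 1 of 5 sterol ester, oxysterol and export genes. Scd1, chosen after its values were seen, was at 23.6 CPM in FLAG-Lhx1-mt replicate 1 and between 52.9 and 54.4 CPM in the other 3 embryos.

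Of 15 genes of SREBP cleavage and INSIG turnover, Sec24b, a coat protein of the vesicles that leave the endoplasmic reticulum, rose and none fell. It was at 61.3 and 57.7 CPM against 33.2 and 35.7 CPM (log2 fold 0.79 ± 0.16, SE; edgeR adjusted p = 0.00797). With FLAG-Lhx1 replicate 1 left out the fold was 0.71 and it was not called (adjusted p = 0.0625). Of 10 genes of lipoprotein receptors and endosomal cholesterol, Vldlr, a receptor for lipoproteins and reelin, rose and none fell. Vldlr was at 22.2 and 22.7 CPM in FLAG-Lhx1 and at 10.95 and 8.79 CPM in FLAG-Lhx1-mt, without overlap. Its log2 fold was 1.19 ± 0.21 (SE; edgeR adjusted p = 0.00457), and it was called under all 11 alternatives.

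Of 11 tested genes of sterol esters, oxysterols and export, Soat2 fell and none rose. An unadjusted p under 0.05 was found for 5, against 21.3% of all tested genes. Soat2, which esterifies cholesterol and is also on the visceral endoderm list, was at 10.6 and 13.4 CPM against 26.2 and 18.02 CPM (log2 fold -0.88 ± 0.23, SE; edgeR adjusted p = 0.0356). The call was lost in 4 of the 11 alternatives, among them without FLAG-Lhx1 replicate 1 (adjusted p = 0.174) and without FLAG-Lhx1-mt replicate 1 (adjusted p = 0.111). None of 14 genes of the isoprenoid branch was called by edgeR. Of these, 3 had an unadjusted p under 0.05, close to the 21.3% of all tested genes. DESeq2, edgeR with no count filter and edgeR without FLAG-Lhx1-mt replicate 2 each called 1 lower, and without FLAG-Lhx1-mt replicate 1 edgeR called 1 higher. Rabggta and Rce1, which act in protein prenylation, had the smallest p (log2 folds -0.68 and -0.56; adjusted p = 0.0625 and 0.0832).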

How the data were processed

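RNA was sequenced from 4 libraries, each labelled as a chimeric embryo, per the labels' protocols with Geo-seq libraries (10 cycles of pre-amplification, 0.5 ng of cDNA, Nextera XT) read as 100 bp paired ends. These carry no molecular identifiers, so the floors given cover counting error only. The deposited values are raw read counts for each gene. The submitters' processing notes name STAR, featureCounts (Subread) and GRCm38/mm10. Not given in the sources used here are their versions, the annotation release and whether counting used strand, so reads of overlapping genes on opposite strands cannot be told apart. GENCODE vM21 (GRCm38) named 96.2% of the 39179 IDs.

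Genes were filtered with filterByExpr (minimum count 10, minimum total 15) and scaled by TMM. Groups were compared by the quasi-likelihood F test of edgeR 4.0.16 (R 4.3.3) over all 15822 genes with Benjamini-Hochberg adjustment at 0.05; the SE was obtained by dividing the log2 fold by the root of F. The p-values measure variation among 2 libraries in each group, which may be technical. That spread was drawn toward 1 modelled across genes (residual degrees of freedom 2, prior 13.4). CPM per kilobase uses merged exon length, and the ranks of Acat2 and Nr1h3 per length depend on that choice. Of 100 genes simulated with a log2 fold of 1 in this comparison, 50% were recovered, and of 100 with a log2 fold of 2, 99%. There were 5 false calls among 154. All genes were simulated with 1 common biological coefficient of variation (18.2%), and genes with low counts were not among those changed. These shares therefore do not cover genes that vary more between embryos or have low counts. No 2 libraries agreed within sampling noise (chi-square per degree of freedom 17.3 to 63.4).

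All 28 genes are described; in each other pathway list reported the called genes, or those with the 2 smallest p, are named. One further list is not reported here. The genes and lists were chosen with earlier results of these data known. Alternatives were upper-quartile and RLE scaling, DESeq2 1.42.0, limma-voom (limma 3.58.1), no count filter, a replicate block, length and GC offsets, and leaving out each embryo.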

Additional observations from a re-analysis of the deposited data

How the results depend on the processing

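Under 11 alternatives, 261 of 308 values of the 28 genes kept their direction and side of the threshold. In 22 the sign changed, all of genes not called with the 4 embryos. With offsets for length and GC content the log2 folds of Acat2 (0.035), Pmvk (0.018), Nsdhl (0.062) and Stard4 (-0.12) changed sign. With upper-quartile normalization, which moved the median of all genes to 0.062, those of Nsdhl (0.024), Srebf1 (0.0065), Srebf2 (0.030) and Insig2 (0.0064) did. With 1 embryo left out, log2 folds that changed sign ran from -0.96 to 0.058 for Mvd, -0.96 to 0.014 for Fdps, -0.17 to 0.43 for Idi1, -0.26 to 0.76 for Lss and -0.12 to 0.97 for Dhcr7. They ran from -0.099 to 0.029 for Nsdhl, -0.38 to 0.11 for Hsd17b7, -0.45 to 0.26 for Srebf1, -0.23 to 0.22 for Srebf2, -0.13 to 0.020 for Insig2 and -0.084 to 0.19 for Stard4. The cause was not tested.

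The number of the 28 genes called higher was 2 with DESeq2, 2 with limma-voom, 3 with no count filter, and 1 to 9 with 1 embryo left out. The number called lower was 1 with upper-quartile normalization, 1 with the length and GC offsets, and 0 to 4 with 1 embryo left out. Their median log2 fold ran from -0.14 to 0.066 and changed sign with upper-quartile normalization (0.0155) and when replicate 2 of FLAG-Lhx1 (0.043) or of FLAG-Lhx1-mt (0.066) was left out. Over all genes, 415 were called higher and 561 lower; with no count filter 952 were called lower, and with 1 embryo left out 244 to 831 higher and 271 to 977 lower. Upper-quartile normalization called 472 higher and 395 lower.

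Same-numbered embryos of the groups did not deviate together (correlation 0.0156). With 2 embryos per group this is 1 value, and it cannot show whether same-numbered embryos were handled together. With the replicate block 4 of the 28 genes were called higher and 2 lower. Genes such as Nr1h3, near 1 CPM, and Tm7sf2 are limited by depth and by 2 embryos per group.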
